A study of Mus musculus with 2 samples.

Results

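The 10 genes described here encode crystallins: the alpha crystallins Cryaa and Cryab, the beta crystallins Cryba1, Cryba2, Cryba4, Crybb1, Crybb2 and Crybb3, and the gamma-type crystallins Crygs and Crygn. They were taken by symbol from a table of 23356 gene symbols, and all 10 were found in it. Retinal RNA was taken from mice of postnatal day 15, and 1 triple mutant library was set against 1 control library. In the triple mutant both copies of Dnmt1, Dnmt3a and Dnmt3b, which encode DNA methyltransferases, were flanked by loxP sites, and the animals carried Rx-Cre, a Cre transgene named for the eye-field homeobox gene Rx. The control had the same flanked copies and no Cre. The strain label reads C57BL/7 for the mutant and C57BL/6 for the control. The labels do not say how many pups or eyes went into a library. There was no replicate of either genotype, so no difference below has a replicate check, and no test between genotypes was possible.

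Crystallins are the abundant soluble proteins that give the lens its refractive power. The alpha crystallins are small heat shock proteins that hold other proteins in solution, and the beta and gamma crystallins are structural proteins that share a fold built from paired Greek key motifs. Several crystallins are also made outside the lens: Cryab is made in glia, muscle and other tissues, and crystallin transcripts have been described in retinal neurons and glia. The retina lies between the vitreous, with the lens beyond it, and the pigment epithelium, so tissue carried over at dissection can add transcripts of either.

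The promoters of 4 beta crystallin genes are shown first, because their transcripts differed in how much was left in the mutant library: Cryba1 and Cryba2 were nearly gone, and Cryba4 and Crybb1 were not. Each stretch ends just before the start site and overlaps no annotated exon. The capitals mark TGCTGA, the core of the sites bound by large Maf proteins, which are activators of lens crystallin genes, or its reverse complement TCAGCA, and TATAAA, the TATA box. The sequences are from RefSeq on GRCm38.p6, each read along its own gene's strand. The Cryba1 stretch is chr11:77725294-77725543 (minus strand), the Cryba2 stretch chr1:74893144-74893393 (minus), the Cryba4 stretch chr5:112252519-112252768 (minus) and the Crybb1 stretch chr5:112255570-112255814 (plus).
Cryba1: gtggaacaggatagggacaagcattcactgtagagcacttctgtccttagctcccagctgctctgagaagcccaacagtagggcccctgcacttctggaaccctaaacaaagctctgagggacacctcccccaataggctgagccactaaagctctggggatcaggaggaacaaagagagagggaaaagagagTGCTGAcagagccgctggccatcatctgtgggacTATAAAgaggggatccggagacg
Cryba2: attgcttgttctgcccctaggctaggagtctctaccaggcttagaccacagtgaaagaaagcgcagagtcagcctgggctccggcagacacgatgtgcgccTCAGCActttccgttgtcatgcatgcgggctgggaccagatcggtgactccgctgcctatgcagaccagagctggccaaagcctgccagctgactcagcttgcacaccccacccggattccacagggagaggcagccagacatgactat
Cryba4: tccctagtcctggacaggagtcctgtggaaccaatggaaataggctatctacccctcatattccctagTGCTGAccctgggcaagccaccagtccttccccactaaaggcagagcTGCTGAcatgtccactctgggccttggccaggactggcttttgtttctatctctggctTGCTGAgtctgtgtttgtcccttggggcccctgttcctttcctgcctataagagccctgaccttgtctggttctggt
Crybb1: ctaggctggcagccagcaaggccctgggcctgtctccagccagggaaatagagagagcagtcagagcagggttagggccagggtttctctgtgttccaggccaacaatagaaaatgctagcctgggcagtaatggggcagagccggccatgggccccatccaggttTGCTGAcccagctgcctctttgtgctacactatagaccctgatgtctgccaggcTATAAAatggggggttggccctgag
RefSeq windows of 250 bases before and 50 after the start were found for 9 of the 10 genes, all but Cryab. TGCTGA on either strand was present in 8 of these 9 windows, against 19.5% of 32841 RefSeq windows of the same length. The match lay 57 bases before the start in Cryba1, 67 in Crybb3, 84 in Crybb1, 108 in Cryaa, 149 in Cryba2, 200 in Crygs and 228 in Crygn, and Cryba4 had 3 matches, at 77, 135 and 182 bases. The window without these letters was that of Crybb2, and its start lies 1351 bases from the start of the transcript that the authors counted. For the other 8 genes the starts lay within 16 bases of each other. TATAAA on either strand was present in the windows of Cryba1, Cryba2, Crybb1 and Crygs (4 of 9, against 13.6% of all windows), and it did not overlap TGCTGA in any of them. It began 23 bases before the start in Cryba1, 25 in Crygs and 30 in Crybb1. In Cryba2 it began only 3 bases before the start and ran across it. The Cryba2 match is therefore not in the stretch shown and is not counted as a TATA box. GAANNTTC, a pair of facing heat shock elements, was in 0 of 9 (against 7.86%). The windows held between 0 and 18 CpG dinucleotides, the sites that DNA methyltransferases act on. Crybb2 had 0, Cryba4 had 1, Crybb1 had 2, Crygs had 3 and Cryba1 had 4, and at the upper end Cryba2 had 15 and Crygn had 18. The median window of all genes held 7. Among genes whose window matched the counted start, those left at under 1% of the control in the mutant had 3 to 15 CpG and the others 1 to 18, so the ranges overlapped. These matches describe letters and are not binding sites; no binding or methylation was measured.

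Of the 10 crystallins, 9 were lower in the mutant library and 0 were higher by the size rule used here, a difference of at least 1 in log2(FPKM + 1). FPKM is the number of fragments per kilobase of transcript, scaled to the depth of the library. The background was 0.648% of 13280 measured genes lower and 1.84% higher, where measured means 1 FPKM or more in either library. The median log2 ratio was -2.91 for the 10 crystallins and 0 for all measured genes. All 10 genes were measured, but 6 of them only through the control library, so for these 6 the filter itself favoured a lower mutant value. The other 4, with at least 1 FPKM in both libraries, were Cryab, Cryba4, Crybb1 and Crybb3; of these, 3 were lower by the size rule, beside 0.356% of 12652 genes measured in both libraries. In the authors' deposited table, 0 of the 11 transcripts of these genes carried the significance call, which 69 of 30608 transcripts had (0.353% of those with status OK). Fewer cells of a type and less RNA per cell cannot be told apart in such bulk samples.

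As a check of the labels, the targeted genes were lower but still present in the mutant library. Dnmt1 had 11.6 FPKM in the mutant and 21.7 FPKM in the control, Dnmt3a had 56.0 and 87.4 FPKM in the same order, and Dnmt3b had 0.827 and 1.03 FPKM. Their log2 ratios were -0.85, -0.63 and -0.15. None passed the size rule, so this check of the labels is weak, most of all for Dnmt3b. The retinal label was checked with rod genes: 7 with usable values summed to 10915 FPKM in the mutant and 13027 FPKM in the control. The steps between low values put 1 FPKM at about 58.1 fragments per kilobase in the mutant library and 49.7 in the control library. Fragment numbers and ranges in brackets below rest on these steps, and the ranges are 95% intervals for counting error only.

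**Figure D1:**
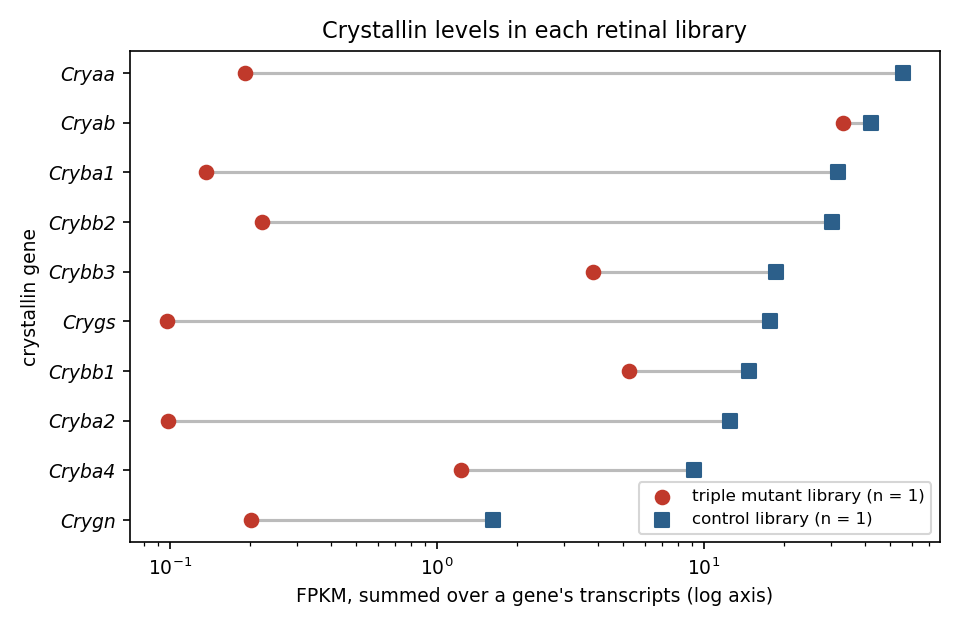
FPKM of each crystallin gene in the triple mutant library (circles) and the control library (squares), 1 library each, on a log axis, ordered by control level; lines join the values of a gene. Cryab is close in both libraries (33.2 and 42.3 FPKM), while Cryaa, Cryba1, Cryba2, Crybb2 and Crygs are under 0.25 FPKM in the mutant.

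The alpha crystallin pair came apart. Cryaa (chromosome 17, 31677807 to 31681733, plus strand, GENCODE M21 on GRCm38), the alpha crystallin made mainly in lens, had 0.192 FPKM in the mutant library and 55.7 FPKM in the control library. That is about 11 fragments in the mutant and 2810 in the control, so the mutant held 0.344% of the control level (0.172 to 0.617). Cryaa had the highest level of the 10 crystallins in the control and ranked seventh of them in the mutant. Cryab (plus strand of chromosome 9, 50751325 to 50756636), the stress-inducible alpha crystallin, had 33.2 FPKM in the mutant and 42.3 FPKM in the control, or 78.3% of the control level (72.2 to 84.9), a log2 ratio of -0.34 that did not pass the size rule. The 2 intervals lie far apart, so the difference between the partners is larger than counting error.

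The second deposited table, from a separate run of the authors' software on the same libraries, splits both alpha genes over more transcripts. Its Cryab sum was 44.9 FPKM in the mutant and 56.7 FPKM in the control, 79.2% of the control. The transcripts of Cryab were not alike there. NM_009964 had 24.3 FPKM in the mutant and 18.1 FPKM in the control, and NM_001289784 had 16.2 FPKM in the mutant and 13.5 FPKM in the control. NM_001289785 went the other way, with 4.37 FPKM in the mutant and 25.03 FPKM in the control. The split between transcripts is an estimate of the authors' software, and the sum over transcripts was used for comparison. An exon of Cryab overlaps Hspb2, a small heat shock protein gene on the opposite strand, which had 1.61 FPKM in the mutant and 0.894 FPKM in the control. The sources used here do not say whether counting was stranded, and Hspb2 was low beside Cryab in both libraries. For Cryaa, the second table placed most of the signal on NM_001278570, with 0.242 FPKM in the mutant and 56.8 FPKM in the control, and the sum again left 0.380% of the control.

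The 6 beta crystallins, structural proteins of the lens, were all lower in the mutant library by the size rule (background 0.648%), but in different degree. Cryba1, Cryba2 and Crybb2 were measured only through the control library, where the filter favoured a lower mutant value. The sum of all 6 was 10.8 FPKM in the mutant and 117 FPKM in the control. Cryba1 (minus strand of chromosome 11, 77718615 to 77725283), which encodes the beta A1 and A3 chains, had 0.136 FPKM in the mutant and 31.8 FPKM in the control, 0.429% of the control (0.117 to 1.10). Crybb2 (minus strand of chromosome 5, 113058258 to 113070117), an abundant beta crystallin of the mature lens, had 0.221 FPKM in the mutant and 30.2 FPKM in the control, 0.733% (0.316 to 1.45). Cryba2 (minus strand of chromosome 1, 74889934 to 74893143) had 0.0987 FPKM in the mutant and 12.5 FPKM in the control, 0.788% (0.162 to 2.32), where the mutant value rested on about 3 fragments. These 3 genes were close to absent from the mutant library.

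The other 3 beta crystallins had a clear signal in the mutant library. Crybb1 (plus strand of chromosome 5, 112255815 to 112269585) had 5.24 FPKM in the mutant and 14.8 FPKM in the control, 35.4% of the control (29.8 to 41.97) and about 192 fragments in the mutant. Crybb3 (minus strand of chromosome 5, 113075839 to 113081584) had 3.83 FPKM in the mutant and 18.6 FPKM in the control, 20.6% (16.9 to 25.1). Cryba4 (minus strand of chromosome 5, 112246493 to 112252518) had 1.23 FPKM in the mutant and 9.21 FPKM in the control, 13.4% (9.35 to 18.8). None of these 3 intervals overlaps those of Cryba1, Cryba2 and Crybb2. Crybb3 was the only one of the 10 with more than 1 transcript in the table with symbols. Its transcript NM_021352 had 3.83 FPKM in the mutant and 15.0 FPKM in the control, while NM_001159650 was listed at 0 in the mutant and had 3.60 FPKM in the control.

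All 3 beta crystallins with a remaining signal lie on chromosome 5, in pairs of neighbours. Cryba4 and Crybb1 are read away from each other with 3.3 kb between them, and they left 13.4% and 35.4% of their control levels. Crybb2 and Crybb3 are read in the same direction with 5.72 kb between them, 789 kb from Crybb1, and they left 0.733% and 20.6%. Neighbours did not leave like amounts: Crybb2 sat beside Crybb3 and was 136-fold lower in the mutant (68.9 to 317), against 4.84-fold lower (3.99 to 5.92) for Crybb3.

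**Figure D2:**
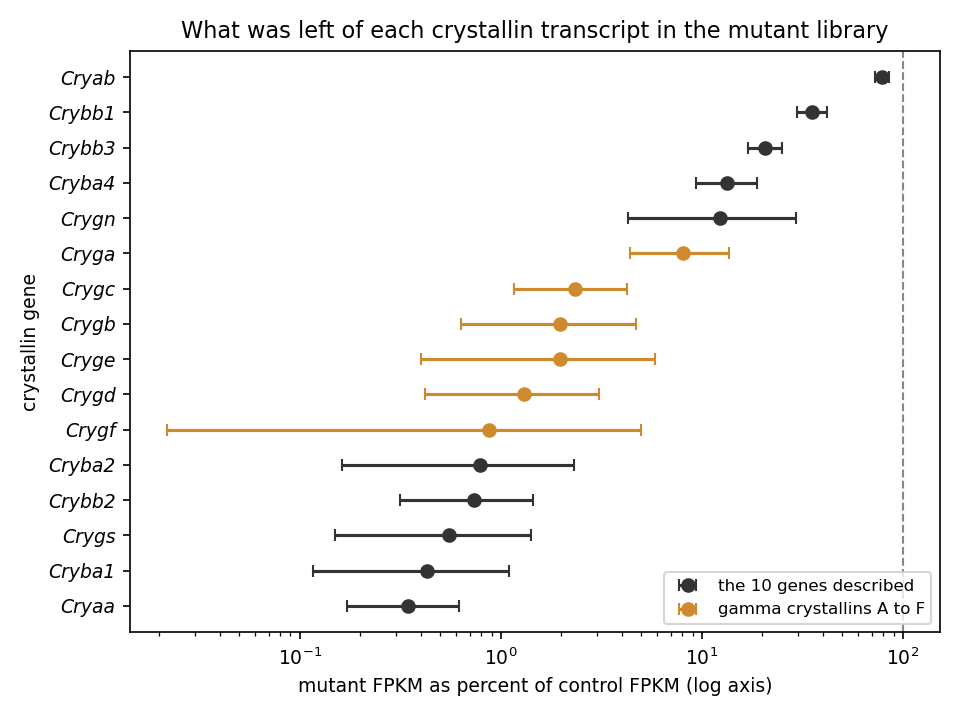
Mutant FPKM as percent of control FPKM for the 10 crystallins (black) and for gamma crystallins A to F (orange), on a log axis; bars are 95% counting intervals and the dashed line marks equal levels. From the top, Cryab (78.3%), Crybb1 (35.4%), Crybb3 (20.6%) and Cryba4 (13.4%) lie to the right, and Cryaa, Cryba1, Crygs, Crybb2 and Cryba2 lie under 1%.

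Both gamma-type members were lower in the mutant, and both were measured only through the control library. Crygs (minus strand of chromosome 16, 22805203 to 22811577), the gamma crystallin of the adult lens cortex, had 0.0976 FPKM in the mutant and 17.7 FPKM in the control, 0.550% (0.149 to 1.42). Crygn (minus strand of chromosome 5, 24751003 to 24758008), which joins features of the beta and gamma families, was the lowest of the 10 in the control, with 0.202 FPKM in the mutant and 1.63 FPKM in the control. It left 12.4% of the control with a wide interval (4.30 to 29.3), since only about 6 fragments in the mutant and 42 in the control supported it.

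The gamma crystallins A to F, which form the core of the lens and were not among the 10, were lower in the mutant as well. All 6 were lower by the size rule (background 0.648%), with a median log2 ratio of -3.15. All 6 were measured only through the control library, so the filter itself favoured a lower mutant value for each of them. Their sum was 1.67 FPKM in the mutant and 64.5 FPKM in the control. Cryga left the most, with 0.668 FPKM in the mutant and 8.31 FPKM in the control (8.04%, 4.40 to 13.7). Crygd had 0.226 FPKM in the mutant and 17.3 FPKM in the control, 1.31%. These genes are close copies of each other, and their separate values are uncertain.

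The amounts left formed 2 sets among the 10 genes that did not overlap in counting error. Cryaa, Cryba1, Cryba2, Crybb2 and Crygs summed to 0.746 FPKM in the mutant and 148 FPKM in the control, and each left under 1% of the control, with upper bounds of at most 2.32%. Cryab, Cryba4, Crybb1, Crybb3 and Crygn summed to 43.7 FPKM in the mutant and 86.5 FPKM in the control, with lower bounds of 4.30% or more. The split was made after the values were seen, on the same values. It does not hold once gamma crystallins A to F are added, since some of these lie across the gap. Crygb left 1.98% (0.636 to 4.68), Crygc 2.34% (1.16 to 4.24) and Cryge 1.97% (0.401 to 5.86). In the ranking of all 13280 measured genes from the lowest log2 ratio, Cryaa, Cryba1, Crybb2, Crygs and Cryba2 held ranks 3, 4, 5, 7 and 9. Cryba4 was at 22, Crybb3 at 25, Crybb1 at 38, Crygn at 58 and Cryab at 1351.

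The make-up of the crystallin signal differed between the libraries as a result. The 10 genes summed to 44.4 FPKM in the mutant and 235 FPKM in the control, 18.9% of the control. Cryab alone made up 74.7% of that sum in the mutant and 18.1% in the control. Without Cryab the sum was 11.3 FPKM in the mutant and 192 FPKM in the control, 5.85% of the control. Cryaa made up 0.432% in the mutant and 23.8% in the control, and Crybb1 11.8% in the mutant and 6.31% in the control. By class, alpha crystallins held 75.1% in the mutant and 41.8% in the control, beta crystallins 24.2% and 49.9% in the same order, and gamma-type crystallins 0.674% and 8.26%.

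The order of levels also differed. In the mutant library Cryab stood highest, followed by Crybb1, Crybb3 and Cryba4. Crybb1 (4.52 to 6.03 FPKM) and Crybb3 (3.20 to 4.56) overlapped in counting error there, as did each neighbouring pair among the 6 lowest genes. In the control library Cryaa (53.7 to 57.8 FPKM) stood above Cryab (40.0 to 44.8), and these were followed by Cryba1, Crybb2, Crybb3, Crygs, Crybb1, Cryba2, Cryba4 and Crygn. The neighbours that overlapped in the control were Cryba1 with Crybb2, Crybb3 with Crygs, and Crybb1 with Cryba2.

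Lens genes other than crystallins were set beside them. Of 16 listed, 6 were measured. By the size rule 1 was lower (background 0.648%) and 0 were higher, and the median log2 ratio was -0.25. Since 1 FPKM is added before the log, a gene under 1 FPKM in the control could not be called lower. The lower one was Bfsp2, which encodes the lens filament protein phakinin, with 0.653 FPKM in the mutant and 2.89 FPKM in the control, 22.6% of the control (16.4 to 30.7). Its filament partner Bfsp1 had 0.662 FPKM in the mutant and 0.913 FPKM in the control, 72.5% (53.3 to 98.4). The lens fibre water channel gene Mip had 0.320 FPKM in the mutant and 0.676 FPKM in the control, 47.4% (30.5 to 72.7). The fibre membrane protein gene Lim2 was listed at 0 in the mutant and had 0.409 FPKM in the control (0 to 17.9%). Grifin, a lens galectin relative, had 0.142 FPKM in the mutant and 1.09 FPKM in the control, 13.0% (2.48 to 43.9).

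The fibre membrane genes Mip and Lim2 were low in the control library too. Gja3, a connexin gene of lens fibres, had 0.00703 FPKM in the mutant and 0.0904 FPKM in the control. Over the whole list, 13 of 16 genes had a lower FPKM in the mutant, beside 6640 of 13280 measured genes. Foxe3, Lim2 and Dnase2b were listed at 0 in the mutant, and Dnase2b was at 0 in the control as well. The list summed to 134 FPKM in the mutant and 129 FPKM in the control, most of it from Tdrd7, an RNA granule gene with 119 FPKM in the mutant and 109 FPKM in the control that is also expressed outside the lens. Lenep, at 6.71 FPKM in the mutant and 6.79 FPKM in the control, shares exons on the same strand with Flad1 (13.7 FPKM in the mutant and 13.9 FPKM in the control), so its value is uncertain. Tdrd7, Caprin2 and Lenep stood at 109%, 109% and 98.9% of the control. They were left out after their values were seen, which favoured a lower sum in the mutant. The other 13 genes summed to 3.44 FPKM in the mutant and 9.38 FPKM in the control, 36.6% of the control. Only 3 of these 13 were measured, with a median log2 ratio of -0.87. Both the percentage and this median follow in part from that choice. The part of carried-over lens in the crystallin differences was not tested.

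Markers of other tissues beside the retina moved with the crystallins in part. Of 11 measured genes of the pigment epithelium and pigment cells, 10 were lower by the size rule (background 0.648%) and 0 higher, with a median of -2.45. Only 3 of the 11 had at least 1 FPKM in both libraries. The list of 14 summed to 9.07 FPKM in the mutant and 157 FPKM in the control, 5.79% of the control, and no gene of it was at 0 in either library. Of the 14, 13 had a lower FPKM in the mutant. Best1 went the other way, with 0.211 FPKM in the mutant and 0.139 FPKM in the control. Ttr, a thyroid hormone carrier, left 3.14% of the control (2.63 to 3.73), and Rpe65, the retinoid isomerase of pigment epithelium, left 2.44% (1.25 to 4.31). Of 6 measured iris and ciliary body genes, 2 were lower (background 0.648%), 0 were higher, and the median was -0.12. The 2 were the prostaglandin D synthase gene Ptgds (21.6 FPKM in the mutant and 99.3 FPKM in the control) and the water channel gene Aqp1 (13.1 FPKM in the mutant and 30.0 FPKM in the control). Of the 6 measured, 3 had a log2 ratio below 0 and 3 above it. Among those above, the collagen gene Col9a1 had 101 FPKM in the mutant and 62.3 FPKM in the control. Of 8 cornea genes, 0 were measured, and none exceeded 0.340 FPKM in the mutant or 0.317 FPKM in the control. The part of these tissues in the crystallin differences was not tested.

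Within the retina, lists of ganglion cell, Mueller glia and microglia genes were set beside the crystallins. Their values are transcript levels of the bulk libraries and do not give numbers of cells. All 8 ganglion cell genes were measured and had lower values in the mutant, as did 6640 of 13280 measured genes. Their median log2 ratio was -0.60, but 0 passed the size rule. They summed to 640 FPKM in the mutant and 964 FPKM in the control, 66.4% of the control, and none was at 0 in either library. The part of ganglion cells in the crystallin differences was not tested. All 10 Mueller glia genes were measured and 0 passed the size rule, with a median of 0.18 and sums of 2634 FPKM in the mutant and 2521 FPKM in the control. Crybb1 is also known from mouse microglia during development. Of 10 microglia genes, a list chosen after the crystallin values were seen, 6 were higher in the mutant by the size rule (background 1.84%) and 0 were lower, and the list summed to 143 FPKM in the mutant and 46.3 FPKM in the control. Csf1r, the receptor on which microglia depend, had 11.2 FPKM in the mutant and 4.35 FPKM in the control. The part of microglia in the remaining Crybb1 signal was not tested.

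**Figure D3:**
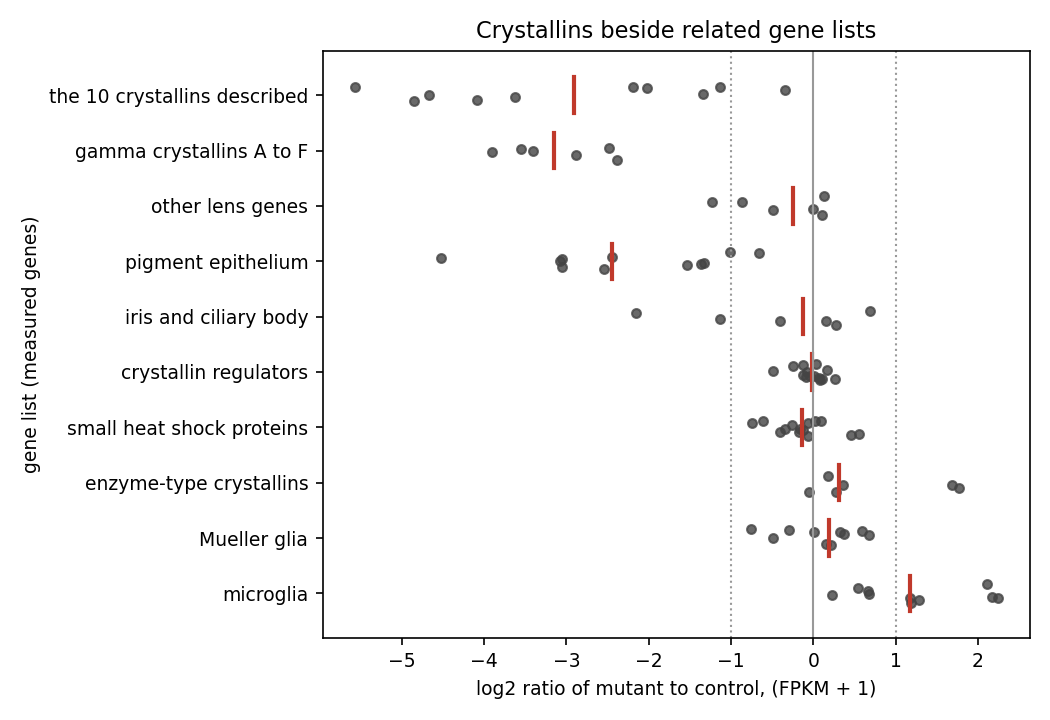
Log2 ratio of mutant to control, on FPKM + 1, for the measured genes (points) of 10 gene lists, with each list's median (red bar) and the size rule at -1 and 1 (dotted lines); 1 library per genotype. The 10 crystallins (median -2.91), the gamma crystallins A to F (-3.15) and the pigment epithelium list (-2.45) lie to the left, and the crystallin regulators lie near 0 (-0.02).

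Most measured regulators of crystallin genes differed little between the libraries. Of 17 listed, 14 were measured, all in both libraries, and 0 passed the size rule in either direction, with a median of -0.02. Pax6, the transcription factor that directs eye and lens formation, had 103 FPKM in the mutant and 123 FPKM in the control. Maf, a lens activator that binds sites of the kind shown above, had 6.34 FPKM in the mutant and 5.83 FPKM in the control, and Prox1, which drives fibre cell differentiation and is also made in retina, had 45.7 FPKM in the mutant and 43.6 FPKM in the control. Hsf4, the heat shock factor of the lens, had 1.15 FPKM in the mutant and 2.03 FPKM in the control, 56.7% (43.5 to 73.6). The listed regulators that were not measured were near 0 in both libraries. Sox1 had 0.00909 FPKM in the mutant and 0.0159 FPKM in the control, and Pitx3 had 0.0291 FPKM in the mutant and 0.0169 FPKM in the control. Foxe3 was listed at 0 in the mutant and had 0.0876 FPKM in the control.

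Small heat shock proteins and their partners, the functional relatives of the alpha crystallins, had a median of -0.14, and 0 of the 14 measured genes passed the size rule. Hspb6, the highest small heat shock gene of the list, had 73.0 FPKM in the mutant and 81.7 FPKM in the control (89.4%, 85.8 to 93.1). An exon of Hspb6 overlaps Lin37 on the opposite strand, at 12.4 FPKM in the mutant and 10.3 FPKM in the control. The inducible chaperone gene Hspa1a had 8.08 FPKM in the mutant and 12.9 FPKM in the control, and the co-chaperone gene Bag3 had 4.13 FPKM in the mutant and 2.49 FPKM in the control. Hspb3 had 0.315 FPKM in the mutant and 1.20 FPKM in the control.

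A list of enzymes known as lens crystallins in other mammals, their relatives and other genes with the beta-gamma fold was compared last. Of its 6 measured genes, 2 were higher in the mutant (background 1.84%) and 0 lower, with a median of 0.32. The 2 were Crym and Aldh1a1. Crym, a thyroid hormone binding protein known as mu crystallin in marsupial lenses, had 323 FPKM in the mutant and 99.4 FPKM in the control, 3.25-fold higher (3.15 to 3.34). Aldh1a1, a retinaldehyde dehydrogenase recruited as a crystallin in elephant shrews, had 85.2 FPKM in the mutant and 24.3 FPKM in the control, 3.51-fold higher (3.35 to 3.68). The quinone reductase gene Cryz, which encodes zeta crystallin in guinea pigs, had 13.3 FPKM in the mutant and 11.6 FPKM in the control.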

How the data were processed

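Total RNA from dissected retinas was sequenced, 1 library per genotype, per the labels' protocols. The submitters' processing notes name TopHat2 2.0.8, Cuffdiff 2.1.1 and the build mm10; annotation, read layout and strandedness are not stated in the labels. The authors deposited FPKM for each RefSeq transcript, per the file headers, in a table with gene symbols and a second table without them. A gene's value adds up its transcripts in the first table, which holds 15318 usable genes (at least 1 row with status OK, no row failed or with excess data). The second table was matched to symbols by transcript ID (98.4% of its rows). Ratios are log2 with a pseudocount of 1 FPKM, which understates the ratios of low genes; percentages and folds use FPKM without it. The planned groups, 1 triple mutant and 1 control library, allow no test, and no p-value was computed.

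Fragments were recovered from steps between the lowest values of long single-transcript genes: 68.5% of 241 low values in the mutant and 75.5% of 212 in the control were whole multiples within 10% of a step, with a fragment length of 250 bases and spliced lengths from GENCODE M21. That length gave the largest share over both libraries together but is weakly determined, since lengths from 50 to 300 bases gave 67.7% to 69.0% in the mutant and 74.2% to 75.6% in the control. Intervals of 95% (Clopper-Pearson for ratios, exact Poisson for levels) cover counting error only. The step recovery and size rule were tested on simulated data. For the step recovery the fragment length was known in advance, so that run does not test the choice of 250 bases. The members and lists were chosen with earlier results of these data known. All 10 members are named; of other lists, up to 5 measured genes with the largest ratios, or any at 20 FPKM or more, were to be named, and further lens, regulator, chaperone and microglia genes and Cryz were named after their values were seen. Alternatives were other pseudocounts, filters, scalings and the second table. Python 3.11.15 with pandas 2.3.3 and SciPy 1.17.1 was used.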

Additional observations from a re-analysis of the deposited data

How the results depend on the processing

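No paired analysis was possible because there was 1 library per genotype. The 9 crystallins lower by the size rule stayed 9 in the second table and under both other scalings, and became 7 with a pseudocount of 5 (without Crybb1 and Crygn) and 8 with a minimum of 5 FPKM, which leaves out Crygn. The crystallin median of -2.91 was -4.40 with a pseudocount of 0.1, -1.60 with 5, -3.62 with a minimum of 5 FPKM and -2.55 in the second table over transcripts that both tables list, a comparison chosen after seeing the data. In that last setting Cryab, left with NM_009964, reversed to a log2 ratio of 0.40. Summed crystallin FPKM, 18.9% of the control, was 22.3% in the second table, 22.5% over shared transcripts, 24.7% without Cryaa and 5.85% without Cryab. Cryaa's share in the control was 25.2% in the second table and 18.6% with gamma crystallins A to F in the sum, and Cryab's share in the mutant was 79.7% and 72.0%. Dnmt3a left 64.1% of the control and 66.9% in the second table. Genes lower by the size rule numbered 180 and higher 390 with a pseudocount of 0.1, 33 and 92 with 5, and 56 and 156 with a minimum of 5 FPKM, beside 86 and 245. Other lens genes lower by the size rule were 2 with a pseudocount of 0.1, 0 with 5 and 0 with a minimum of 5 FPKM, where their median was 0.06. Of 89 recomputed crystallin ratios, 86 kept their direction and their side of the size rule, but many of them could not change. Filters leave a gene's own ratio as it was, and all 11 crystallin transcripts had status OK. The scaling to a median of 0 also changed nothing, since the median was already 0. Depth limits the mutant values of Cryba1, Cryba2, Crygs and Crygn, which rest on 3 to 6 fragments.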
